A study of Mus musculus with 12 samples.

Results

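Calcineurin is the calcium- and calmodulin-dependent protein phosphatase that strips phosphate from the NFAT transcription factors, so that they enter the nucleus and bind DNA, often beside partner factors. The enzyme pairs a catalytic A subunit with a regulatory B subunit that binds calcium, and the RCAN proteins bind the catalytic subunit and restrain it. In skeletal muscle the pathway is known for carrying the calcium signal of motor nerve activity to the slow, oxidative fibre programme, and in neurons calcineurin acts at synapses and on transcription. Expression of 9 genes of this pathway was described in congenic and wild type mice: Ppp3ca and Ppp3cb (catalytic subunits), Ppp3r1 (regulatory subunit), Nfatc1, Nfatc2, Nfatc3 and Nfatc4 (transcription factors), and Rcan1 and Rcan2 (regulators of calcineurin).

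Every probe annotated with 1 of these gene symbols, under the current name or a synonym, was taken. This gave 8 of the 33012 probes measured, for 7 of the 9 genes (and of 13840 genes with a probe of their own). Nfatc1 had 2 probes, the other 6 genes had 1 each, and no probe carried the symbol of Nfatc2 or Nfatc3. The genes were chosen from the measured values of these arrays, with the strain difference of Ppp3cb in muscle in view. The muscle differences of the 8 probes are therefore given as a description and without a test. The hypothalamus contrast was not the one in view, though earlier results of these data were known when the genes were chosen.

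The animals were male mice of the B6.CAST-17 strain, homozygous for chromosome 17 material of CAST origin on a B6 background, and male wild type B6 mice. Skeletal muscle and hypothalamus of both strains were profiled with 3 arrays in each of the 4 groups. The titles of the hypothalamus samples name short congenics and those of the muscle samples do not. The limits of the transferred segment, the age of the mice, and whether both tissues came from the same mice could not be learned from the sources used here. The values are log2 intensities, so a difference of 1 is taken as a 2-fold change. Each tissue had been brought to a common distribution of its own, and signal over background is unknown.

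On the muscle arrays the median of 6 skeletal muscle markers was 18.67 to 19.05, and on the hypothalamus arrays it was 8.10 to 8.98. The median of 7 neuron markers was 8.51 to 8.97 in muscle. In hypothalamus it was 13.70 to 15.05 in congenic mice, and 12.28, 15.73 and 15.89 on wild type arrays 1, 2 and 3. Their summed level overlapped there, at 18.61 to 19.43 in congenic and 18.35 to 19.64 in wild type mice. The part of these markers' cells in the values of the 8 probes was not tested. Wild type hypothalamus array 1 stood apart: its Spearman correlations with the other 5 arrays of the tissue were 0.420 to 0.461, where those 5 gave 0.775 to 0.853 among themselves. Hypothalamus results are therefore given with and without it. In muscle all pairs gave 0.796 to 0.862, but 19.5% of probes lay more than 1 log2 unit from the mean of the other arrays of their group on congenic array 3, against 11.8% to 14.5% on the other 5.

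NFAT proteins bind the core GGAAA, which reads TTTCC on the other strand. The bases before the transcription start are shown for Ppp3cb and Nfatc4, whose muscle arrays separated by strain, and for both annotated starts of Rcan1, which is known for an inner start that calcineurin and NFAT drive. Each run is the 250 bases upstream of the start, written 5′ to 3′ on the gene's strand, from RefSeq on GRCm38.p6, with GGAAA or TTTCC in capitals. The windows are chr14:20546574-20546823 (minus strand) for Ppp3cb and chr14:55824545-55824794 (plus strand) for Nfatc4, and chr16:92466170-92466419 and chr16:92400079-92400328 (both minus strand) for Rcan1.
Ppp3cb: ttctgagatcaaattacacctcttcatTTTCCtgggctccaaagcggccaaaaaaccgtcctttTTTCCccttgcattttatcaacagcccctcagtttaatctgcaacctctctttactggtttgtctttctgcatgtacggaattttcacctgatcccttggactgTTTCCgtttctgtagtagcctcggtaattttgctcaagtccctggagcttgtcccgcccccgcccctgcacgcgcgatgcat
Nfatc4: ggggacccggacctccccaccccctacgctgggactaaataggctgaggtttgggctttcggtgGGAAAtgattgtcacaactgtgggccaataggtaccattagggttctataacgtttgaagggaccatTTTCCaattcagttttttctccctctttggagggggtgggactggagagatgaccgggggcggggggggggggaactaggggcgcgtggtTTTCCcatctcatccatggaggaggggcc
Rcan1 outer start: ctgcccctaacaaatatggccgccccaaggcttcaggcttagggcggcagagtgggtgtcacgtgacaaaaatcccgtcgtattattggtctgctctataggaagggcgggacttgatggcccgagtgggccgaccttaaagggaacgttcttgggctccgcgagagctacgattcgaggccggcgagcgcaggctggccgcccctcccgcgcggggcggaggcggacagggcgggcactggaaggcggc
Rcan1 inner start: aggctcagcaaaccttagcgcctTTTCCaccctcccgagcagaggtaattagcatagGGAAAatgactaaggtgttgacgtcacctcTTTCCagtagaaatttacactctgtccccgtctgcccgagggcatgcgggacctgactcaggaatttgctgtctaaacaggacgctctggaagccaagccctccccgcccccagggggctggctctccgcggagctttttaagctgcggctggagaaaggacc
The core occurred 3 times before Ppp3cb, 3 times before Nfatc4, 0 times before the outer start of Rcan1 and 3 times before its inner start. Of all 32841 windows of this length in the table, 6.39% held at least 3 matches on either strand and 55.6% held at least 1. The window of Ppp3r1 held 0 matches, the 3 windows of Rcan2 held 2, 0 and 0, and of the genes without an array probe Nfatc2 had 3 and 1 and Nfatc3 1 and 0 in their windows. Windows of Ppp3ca and Nfatc1 were not used here. These are matches of letters and do not show binding. Which Rcan1 transcript the array probe reads is not given in the sources used here.

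The catalytic subunit Ppp3cb was lower in congenic muscle than in wild type muscle. It read 18.28, 18.34 and 17.37 on the congenic arrays and 19.07, 19.25 and 19.41 on the wild type arrays. All 3 congenic values lay below all 3 wild type values, and the lowest of them was on congenic array 3. The means were 18.00 ± 0.54 (SD, n = 3) and 19.24 ± 0.17 (n = 3), a difference of -1.24 (SE 0.25), or 2.37-fold. Without congenic array 3 the difference was -0.93, and leaving out each of the other arrays in turn gave -1.42 to -1.16.

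Ppp3ca, the catalytic subunit that predominates in brain, read 15.49, 15.38 and 14.26 on the congenic muscle arrays and 15.32, 15.75 and 15.54 on the wild type ones. The groups overlapped, and congenic array 3 alone lay well below the rest. The difference was -0.49 (SE 0.30), and -0.10 without that array. Ppp3r1, which encodes the calcium-binding B subunit, read 10.42, 10.80 and 8.71 in congenic and 10.07, 10.43 and 10.72 in wild type muscle. Its groups overlapped too, and again only congenic array 3 was low. The difference of -0.43 (SE 0.54) became 0.20 without it.

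Congenic muscle array 3 was thus the lowest of the 6 for all 3 subunit genes. It deviated from the mean of the other 2 congenic arrays by -1.18 for Ppp3ca, -0.94 for Ppp3cb and -1.90 for Ppp3r1. It was the highest of its group for Nfatc1, Nfatc4, Rcan1 and Rcan2, with deviations of 1.05 for Rcan1 and 0.77 for Rcan2.

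Of the NFAT genes, Nfatc4 separated the muscle arrays by strain and Nfatc1 did not. Nfatc4 read 7.84, 7.94 and 8.08 on the congenic arrays and 8.95, 8.42 and 8.83 on the wild type arrays. The congenic values were all lower, and they agreed within 0.12 (SD) around a mean of 7.95, against 8.73 ± 0.28 (n = 3) in wild type muscle. The difference was -0.78 (SE 0.37), or 1.72-fold. The probe was dim, at percentiles 13.7 to 21.9 of all probes on the congenic and 33.9 to 46.8 on the wild type arrays. How far these values lie above background is unknown.

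Nfatc1, the family member linked in muscle to slow fibre genes, was read by probes 555708 and 821473. Probe 555708 gave 11.82, 12.03 and 12.24 in congenic and 11.58, 11.65 and 11.82 in wild type muscle. The congenic arrays were the higher ones with an overlap near 11.82, and the difference was 0.34 (SE 0.24). Probe 821473 gave 9.83, 10.53 and 11.26 against 10.49, 10.78 and 10.34. The wild type values lay inside the congenic range, with a difference of 0.00 (SE 0.40). This near-zero value took either sign, from -0.36 to 0.36, as single arrays were left out.

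Neither regulator of calcineurin separated the muscle arrays. Rcan1, the feedback inhibitor whose inner start is an NFAT target, read 15.22, 15.35 and 16.33 in congenic and 15.26, 15.50 and 15.75 in wild type muscle. The highest value was on congenic array 3 and the other arrays were interleaved. The difference was 0.13 (SE 0.28), and -0.22 without that array. Rcan2, a related inhibitor of calcineurin, read 10.87, 11.16 and 11.78 against 11.46, 11.13 and 11.82. The groups overlapped over nearly their whole range, with a difference of -0.20 (SE 0.32) that lay between -0.45 and 0.00 as single arrays were left out.

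**Figure D1:**
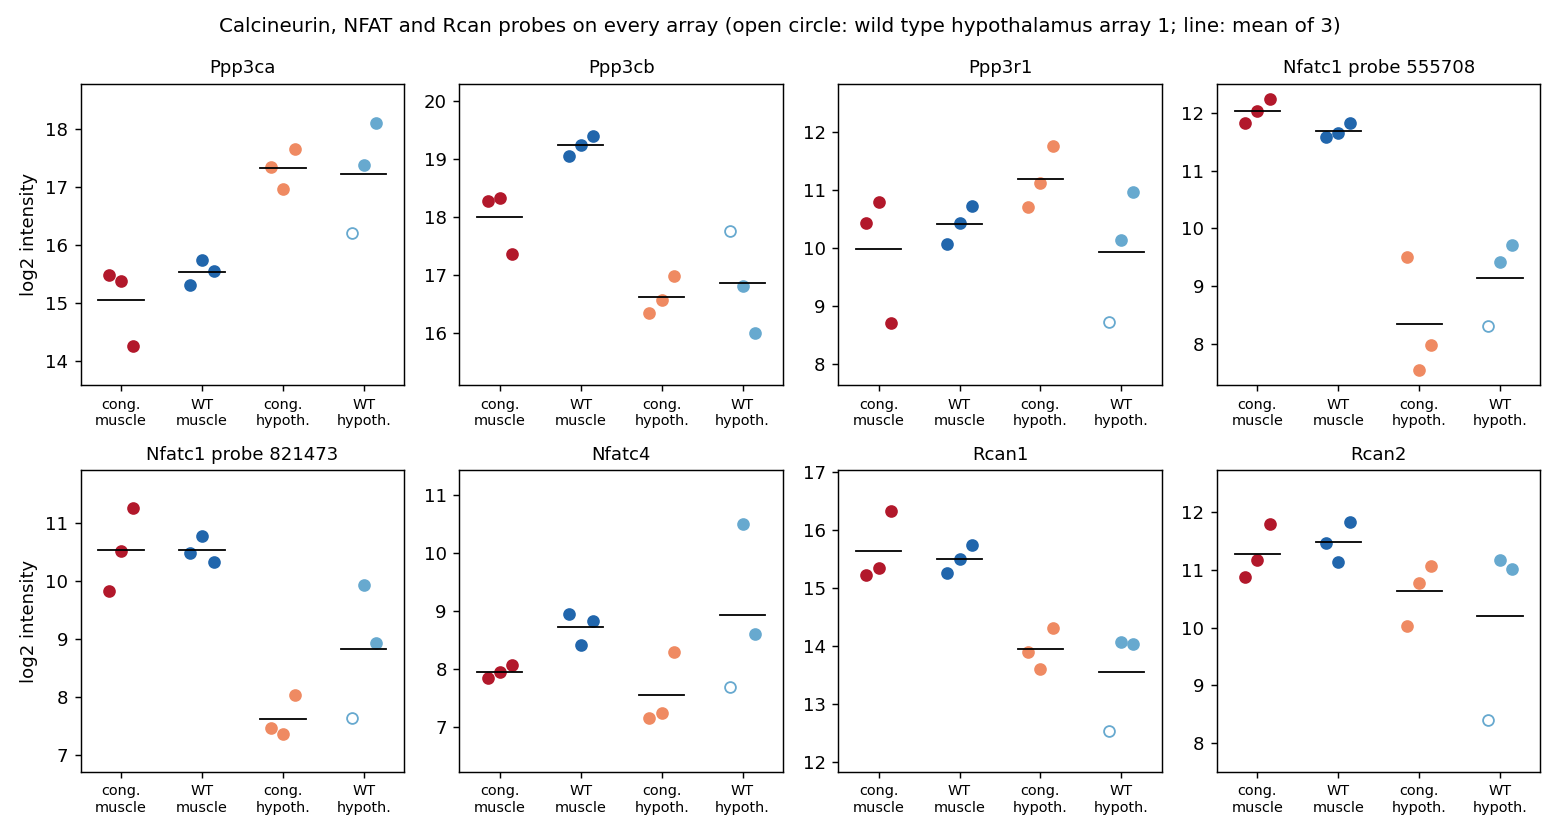
Log2 intensity (vertical axes, all of the same span) of the 8 probes on the 12 arrays, by strain and tissue; points are arrays, lines are means of 3, and the open circle is wild type hypothalamus array 1. Ppp3cb and Nfatc4 are the 2 probes with no overlap between the strains in muscle, and the open circle is the lowest hypothalamus value of Ppp3ca, Ppp3r1, Rcan1 and Rcan2 and the highest of Ppp3cb.

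Over the 8 probes, 2 had muscle groups that did not overlap, both with congenic lower. Over all probes 11.9% had no overlap. The median of the 8 differences was -0.31, with 3 positive and 5 negative, where the median of all probes was 0.01. None of the 8 was among the 6 probes (0.0182% of all) that limma called in muscle. Since the muscle contrast chose the genes, nothing is read from these counts.

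Markers of other cell types were read in the same muscle samples. The summed level of 6 measured macrophage markers of 8 was 17.22 to 17.38 (log2) in congenic and 16.11 to 16.72 in wild type muscle, and that of 6 of 6 fibroblast markers was 20.76 to 20.85 against 20.41 to 20.70. In each of these lists 5 of the 6 markers had positive differences, and by limma 0 of the 12 passed. That of 6 measured lymphocyte markers of 9, a class of cells known for NFAT signalling, was 11.69 to 12.23 against 11.21 to 12.12 and overlapped. The lymphocyte probes were dim, with medians of 8.57 to 8.84 in congenic and 8.19 to 8.62 in wild type muscle. How far they lie above background is unknown. The part of these 3 cell types in the muscle values was not tested. In whole tissue, fewer cells of a type and less RNA per cell cannot be told apart.

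In hypothalamus Ppp3cb did not separate the strains. Ppp3cb read 16.34, 16.57 and 16.99 on the congenic and 17.76, 16.81 and 16.01 on the wild type arrays. The congenic values lay within the wild type range, whose top was array 1. The difference was -0.23 (SE 0.62; limma adjusted p = 0.953), and 0.22 (SE 0.43; limma adjusted p = 0.958) without that array.

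The other catalytic gene and the regulatory subunit also overlapped between the strains in hypothalamus. Ppp3ca read 17.35, 16.97 and 17.65 in congenic and 16.21, 17.38 and 18.11 in wild type mice, with both extremes in wild type mice. Its difference was 0.09 (SE 0.63; limma adjusted p = 0.980), and -0.42 (SE 0.49; limma adjusted p = 0.936) without wild type array 1. Ppp3r1 read 10.71, 11.11 and 11.76 against 8.71, 10.14 and 10.95. The 2 brightest arrays were congenic and the dimmest was wild type array 1. The difference was 1.26 (SE 0.75; limma adjusted p = 0.936), and 0.65 (SE 0.43; limma adjusted p = 0.900) without it.

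The NFAT probes had negative differences in hypothalamus, and none passed the test. Nfatc4 read 7.15, 7.24 and 8.29 in congenic and 7.69, 10.51 and 8.61 in wild type hypothalamus. Only wild type array 1 lay among the congenic values, and wild type array 2 stood well above all others. The difference was -1.38 (SE 0.75; limma adjusted p = 0.936), and -2.00 (SE 0.69; limma adjusted p = 0.900) without wild type array 1, when the groups no longer overlapped. Without wild type array 2 it was -0.60.

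Nfatc1 probe 821473 read 7.48, 7.37 and 8.05 in congenic and 7.64, 9.94 and 8.93 in wild type hypothalamus, again with only wild type array 1 among the congenic values. The difference was -1.21 (SE 0.63; limma adjusted p = 0.936), and -1.81 (SE 0.53; limma adjusted p = 0.900) without that array. Without wild type array 2 it was -0.66. Nfatc1 probe 555708 read 9.50, 7.56 and 7.99 against 8.32, 9.42 and 9.71. Here congenic array 1 was as high as the wild type arrays, so that the groups overlapped with or without wild type array 1. The difference was -0.80 (SE 0.70; limma adjusted p = 0.936), and -1.21 (SE 0.67; limma adjusted p = 0.900) without wild type array 1. Without congenic array 1 it was -1.37, and without array 1 of both groups -1.79. On the congenic hypothalamus arrays Nfatc4 stood at percentiles 3.0 to 34.3 of all probes and Nfatc1 probe 821473 at 6.2 to 26.3, and their signal over background is unknown.

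Both Rcan genes overlapped between the strains in hypothalamus. Rcan1 read 13.90, 13.61 and 14.32 in congenic and 12.53, 14.08 and 14.03 in wild type hypothalamus, with wild type array 1 far below the rest. The difference was 0.40 (SE 0.66; limma adjusted p = 0.939), and -0.11 (SE 0.31; limma adjusted p = 0.968) without it. Rcan2 read 10.03, 10.77 and 11.06 against 8.40, 11.17 and 11.01. Wild type array 1 was again the low one, and the other wild type arrays lay at the top of the congenic range. The difference was 0.43 (SE 0.86; limma adjusted p = 0.943), and -0.47 (SE 0.40; limma adjusted p = 0.912) without it.

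Over all 6 hypothalamus arrays, 0 of the 8 probes had groups that did not overlap, against 9.16% of all probes. Limma gave 0 of 8 with an adjusted p under 0.05 (0% of all probes) and 0 of 8 with an unadjusted p under 0.05, against 1.99%. Without wild type array 1 the groups of 2 of 8 did not overlap, against 22.6% of all probes. In that comparison 2 of 8 had an unadjusted p under 0.05, against 5.33%, and 0 of 8 passed (0% of all probes). These 2 were Nfatc4 and Nfatc1 probe 821473. The median of the 8 differences was -0.07 over 6 arrays and -0.45 over 5, where all probes had medians of -0.07 and -0.01. Markers of other cells differed between single hypothalamus arrays. The summed level of 6 measured pituitary markers of 8 was 13.80 to 19.11 in congenic and 14.12 to 15.18 in wild type mice. The value of 19.11 was on congenic array 1. That of 6 measured oligodendrocyte markers of 8 was 12.89 to 17.46 in congenic and 10.74 to 13.67 in wild type mice, with 17.46 on congenic array 3. Their part in the values was not tested.

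**Figure D2:**
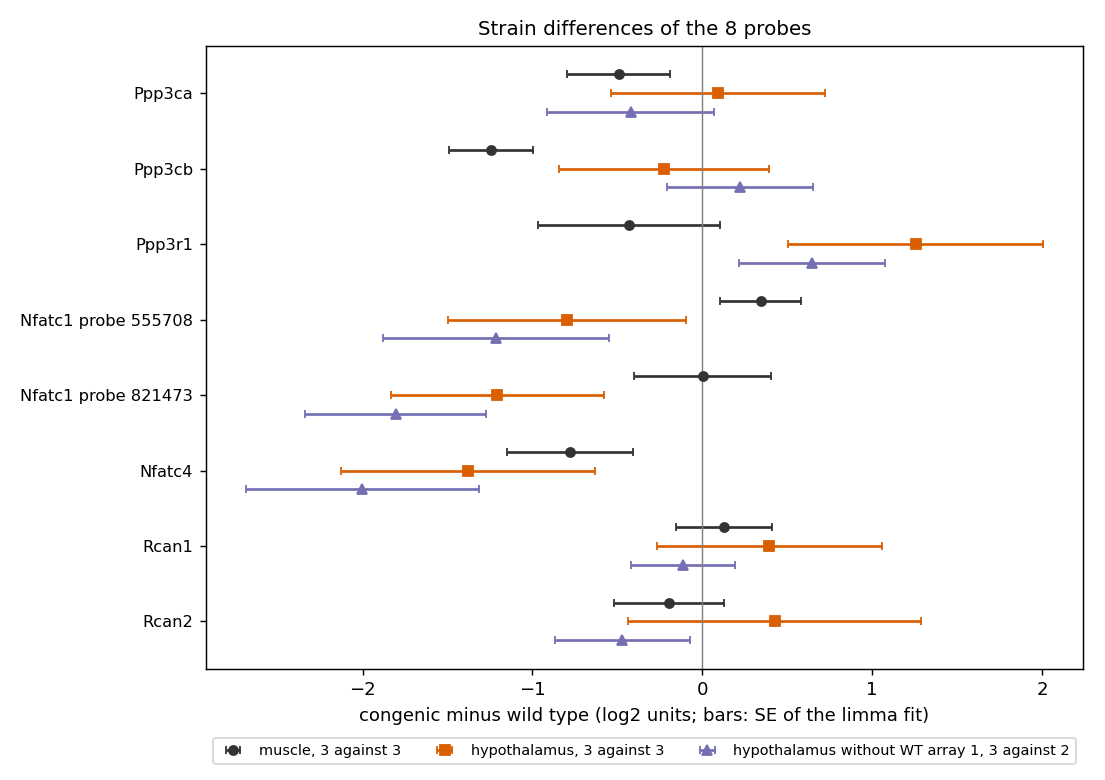
Congenic minus wild type difference (horizontal axis, log2 units) of the 8 probes in muscle (circles), in hypothalamus over 6 arrays (squares) and over 5 (triangles); bars are SEs of the limma fit. Ppp3cb at -1.24 in muscle is the point farthest from 0 in units of its bar there, and Nfatc4 and Nfatc1 probe 821473 reach -2.00 and -1.81 in hypothalamus over 5 arrays.

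The muscle difference minus the hypothalamus difference holds the muscle contrast that chose the genes, so for the 8 probes it is given as a value without a test. For Ppp3cb it was -1.02 (SE 0.71). It was -1.47 without wild type hypothalamus array 1, -0.59 without wild type hypothalamus array 3 and -0.71 without congenic muscle array 3. Over the 12 arrays the values of the other 7 probes ran from -1.69 for Ppp3r1 to 1.21 for Nfatc1 probe 821473. In the fit over all probes limma called 0% in this contrast, with or without wild type hypothalamus array 1, and 3.63% and 6.74% of all probes had an unadjusted p under 0.05.

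Levels in the tissues were set side by side without a test, because tissue and processing cannot be told apart. Ppp3ca was higher in hypothalamus, at 17.28 ± 0.65 (SD, n = 6) against 15.29 ± 0.53 (n = 6) in muscle, and no muscle array reached any hypothalamus array. Ppp3cb ran the other way, at 18.62 ± 0.77 in muscle and 16.75 ± 0.61 in hypothalamus. Its groups ranked wild type muscle, congenic muscle, wild type hypothalamus and congenic hypothalamus, and only the first step had no overlap. The tissue differences, muscle minus hypothalamus, were -1.99 for Ppp3ca and 1.87 for Ppp3cb. Without wild type hypothalamus array 1 they were -2.21 and 2.07, and Ppp3cb too had no overlap between the tissues. They were -2.73 and 1.05 when the 12 arrays were brought to 1 distribution.

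Rcan1 was higher in muscle by 1.82, without overlap between the tissues, and by 1.25 after that scaling. Nfatc1 was higher in muscle by 3.11 (probe 555708, no overlap) and by 2.30 (probe 821473, which overlapped through 1 hypothalamus array). For both Nfatc1 probes the groups ranked congenic muscle, wild type muscle, wild type hypothalamus and congenic hypothalamus, and only the step between the tissues had no overlap. Rcan2, at 0.96 higher in muscle, Ppp3r1, at 0.37 lower, and Nfatc4, at 0.10 higher, overlapped between the tissues. For Nfatc4 the value was -0.06 after scaling the 12 arrays together, so it has no direction. Without wild type hypothalamus array 1 the values were 0.56 for Rcan2, -0.74 for Ppp3r1 and -0.01 for Nfatc4, and Rcan1 and the Nfatc1 probes stayed higher in muscle by 1.58, 3.02 and 2.19. Neighbouring groups of Ppp3r1 and of Rcan2 overlapped at every step of their order.

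Of 24 other genes of the calcineurin pathway, 16 were measured. In muscle 8 had positive and 8 negative differences, with a median of -0.01, where all genes had a median of 0.03. By limma 0 of 16 passed, against 0.0182% of all probes, and 1 had an unadjusted p under 0.05, against 5.01%. That gene was Mef2c, a muscle transcription factor acted on by calcineurin signalling. It read 15.26, 15.32 and 13.18 in congenic and 15.56, 15.73 and 15.68 in wild type muscle. All congenic arrays were lower, by far the most on array 3, which was also the low array of the calcineurin subunits. The difference was -1.07 (SE 0.48; limma adjusted p = 0.835).

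The next largest muscle differences of the list were 0.65 for Ppp3r2, -0.52 for Rcan3 and -0.41 for Mef2a. Ppp3r2, the B subunit known from testis, read 9.14, 8.65 and 8.04 in congenic and 8.01, 7.95 and 7.93 in wild type muscle. The congenic arrays were all higher, the lowest of them by little. Its limma adjusted p was 0.835, and those of Rcan3, the third RCAN gene, and Mef2a, a relative of Mef2c, were 0.851 and 0.867. With smaller differences, Mef2d (-0.32) also had all congenic muscle arrays lower, and Homer3 (0.30) and Ppia (0.24) had them all higher. The remaining pathway genes overlapped in muscle, where 11.9% of all probes had no overlap.

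In hypothalamus 9 of the 16 pathway genes had positive differences over 6 arrays and 9 over 5, with medians of 0.10 and 0.09, and 0 passed. The largest over 6 arrays were 1.70 for Fkbp1a, the binding protein through which the drug FK506 inhibits calcineurin, and 1.66 for Calm3, a calmodulin gene. Calm3 read 16.93, 18.24 and 17.41 in congenic and 10.61, 18.78 and 18.23 in wild type hypothalamus. Wild type array 1 was far below the rest, and without it Calm3 differed by -0.97 and Fkbp1a by 0.25. The kinases that oppose calcineurin by returning phosphate to NFAT, Dyrk1a and Gsk3b, differed by -0.95 and -0.81 over 6 arrays, and limma adjusted p-values of these 4 genes were 0.936. Without wild type array 1 Dyrk1a differed by -0.45 and Gsk3b by -0.12. Another Gsk3b probe, 564783, had the other sign, at 0.19 over 6 arrays and 0.15 over 5. Over 5 arrays the largest beside Calm3 were 0.75 for Myoz1, a calcineurin-binding protein of the Z disc, -0.72 for Stim1, the calcium sensor of the endoplasmic reticulum, and 0.56 for Mef2a, with limma adjusted p-values of 0.900 to 0.945.

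**Figure D3:**
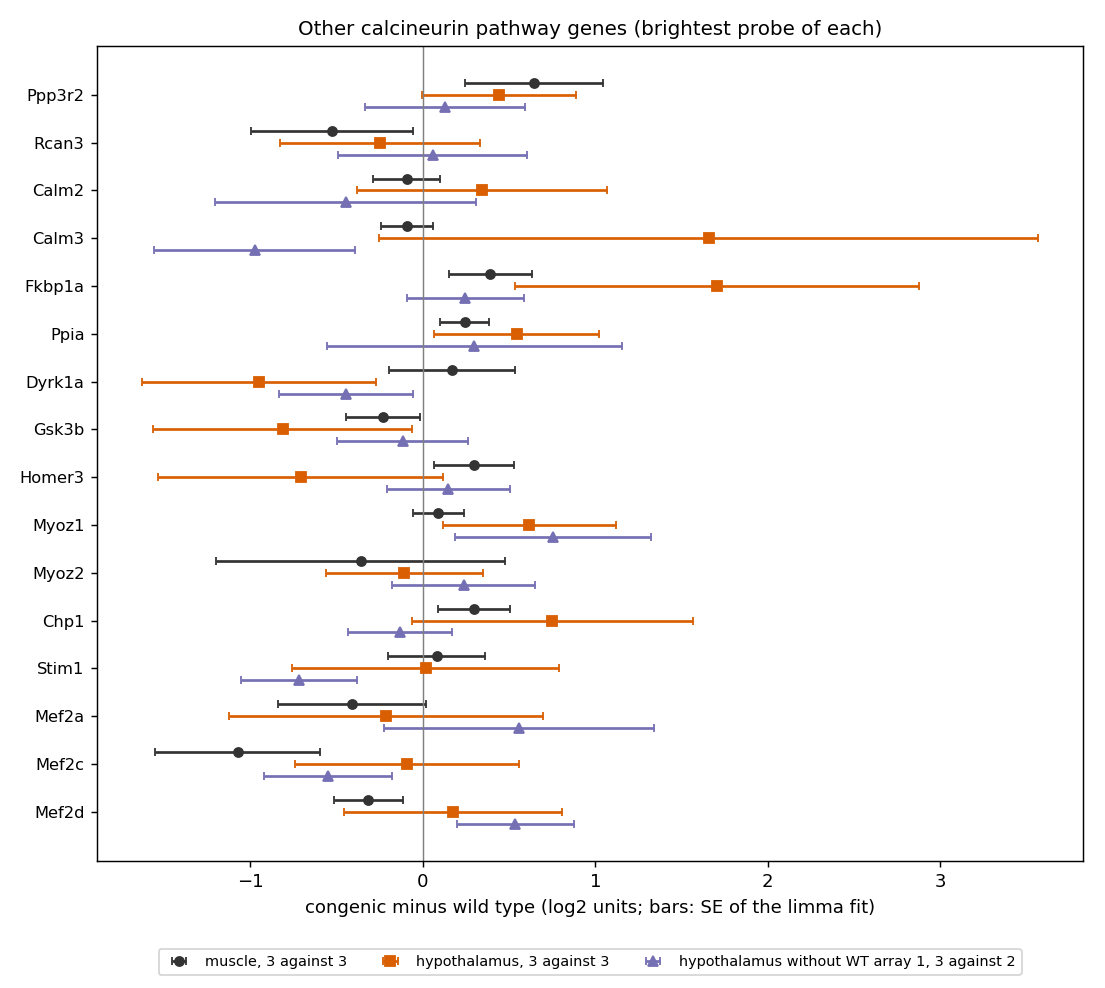
Congenic minus wild type difference (horizontal axis, log2 units) of the 16 other measured calcineurin pathway genes in muscle (circles), hypothalamus over 6 arrays (squares) and over 5 (triangles); bars are SEs of the limma fit. Mef2c at -1.07 is the lowest muscle value, and Calm3 moves from 1.66 to -0.97 in hypothalamus when wild type array 1 is left out.

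Fibre genes known to follow calcineurin activity showed no shared direction over all muscle arrays. Of 9 slow fibre genes 8 were measured, and in muscle 3 had positive and 5 negative differences, with a median of -0.10. The largest were -0.93 (SE 0.58) for Tnnc1, 0.74 (SE 0.63) for Tnnt1, -0.73 (SE 0.60) for Myh7 and 0.48 (SE 0.47) for Tnni1. These encode slow troponin subunits and the slow myosin heavy chain. Congenic array 3 was the highest congenic array for Tnnt1, Myh7 and Tnni1, at 12.04, 10.54 and 9.54. It was the lowest for Tnnc1, at 13.86, so directions and sizes rest in part on that array. The Myh7 probe was dimmer in muscle, at 8.15 to 10.54, than in hypothalamus, at 12.97 to 14.74. The Tnni1 probe was dim in both, at 8.16 to 9.54 in muscle and 6.98 to 9.88 in hypothalamus. How well either probe reads slow fibres is unknown. Of 10 fast fibre genes 7 were measured, with 3 positive, 4 negative and a median of -0.02. Their largest values were -0.24 for Tnnt3, a fast troponin, -0.07 for Atp2a1, the fast calcium pump, -0.06 for Tnnc2, which encodes fast troponin C, and 0.02 for Actn3, the actinin of fast fibres. These are values of the brightest probe of a gene, and other probes could differ. Atp2a1 probe 325427 gave -0.48 (SE 0.29) in muscle. For Casq2, of the slow list, probes 480978 and 773674 gave -0.36 and 0.43. By limma 0 of these 15 genes passed in muscle, with adjusted p-values of 0.835 and above, and 0 passed in hypothalamus.

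Of 10 genes known as NFAT targets in other cells, 8 were measured, and in muscle 3 were positive and 5 negative, with a median of -0.23. Csf2, a growth factor of myeloid cells, read 7.96, 8.32 and 7.79 in congenic and 9.56, 8.80 and 8.51 in wild type muscle. The congenic arrays were all lower, and the difference was -0.94 (SE 0.43; limma adjusted p = 0.835). The cytokines Il2 and Il4 differed by -0.69 and -0.68 and the vasoactive peptide gene Edn1 by 0.41, and all 3 overlapped. In hypothalamus over 6 arrays the largest were 0.85 for Ifng and -0.65 for Tnf, both cytokines, -0.33 for Fasl, a death receptor ligand, and -0.26 for Il2. Another Fasl probe, 928517, differed by -1.19 over 6 arrays and -0.19 over 5. Over 5 arrays they were 1.50 for Ifng, 1.37 for Bdnf, a neurotrophin, -1.07 for Tnf and -0.40 for Il2. Over 6 arrays Bdnf differed by 0.07. Tnf lies on chromosome 17, the chromosome of the congenic segment, and whether it lies inside the segment is unknown. By limma 0 of 8 passed in either tissue, with adjusted p-values of 0.835 to 0.867 for the muscle genes named and 0.900 to 0.942 for those in hypothalamus over 5 arrays. Several probes of this list were about as dim as that of Nfatc4. Csf2 read 7.79 to 9.56 and Il2 6.81 to 8.70 in muscle. Ifng read 6.85 to 9.08 and Tnf 7.23 to 9.25 in hypothalamus. How far such values lie above background is unknown.

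Rcan2 is the 1 gene of the 9 that lies on chromosome 17, the chromosome of the congenic segment. In the gene order of GRCm38.p6 it is number 429 of 656 measured chromosome 17 genes, with Cyp39a1 on one side and Enpp5 on the other. Of its 10 nearest measured neighbours, 5 on each side, 6 had all congenic muscle arrays below all wild type ones, and 0 had all above, where 11.9% of all probes had no overlap in one direction or the other. The nearest ones were Cyp39a1, an oxysterol hydroxylase, at -1.24 (SE 0.35), and Enpp5, of the ectonucleotide pyrophosphatase family, at -1.68 (SE 0.57), with limma adjusted p-values of 0.835. Of the 10, only Pla2g7, which encodes a hydrolase of platelet-activating factor, passed in muscle, at -2.25 (limma adjusted p = 0.0124). Rcan2 itself, at -0.20, had overlapping arrays. Whether the probes of these genes lie over sequence differences between CAST and B6 was not tested.

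In hypothalamus over 6 arrays, 0 of the 10 neighbours had all congenic arrays lower and 1 (Cdc5l) had them all higher, where 9.16% of all probes had no overlap. Over 5 arrays, 3 of the 10 had all congenic arrays lower (Pla2g7, Enpp5 and Supt3, a subunit of the SAGA complex) and 1 had them all higher (Cdc5l, a splicing factor), where 22.6% of all probes had no overlap. Enpp5 read 10.39, 10.81 and 10.74 in congenic and 9.59, 12.88 and 12.98 in wild type hypothalamus. Wild type array 1 was below every congenic array and the other wild type arrays were above them, with a difference of -2.28 over 5 arrays (SE 0.30; limma adjusted p = 0.383). The wild type values of Rcan2 on those arrays, 11.17 and 11.01, stood close to its highest congenic value of 11.06. These genes were compared with Rcan2 as values only, and a difference between them and Rcan2 was not tested.

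**Figure D4:**
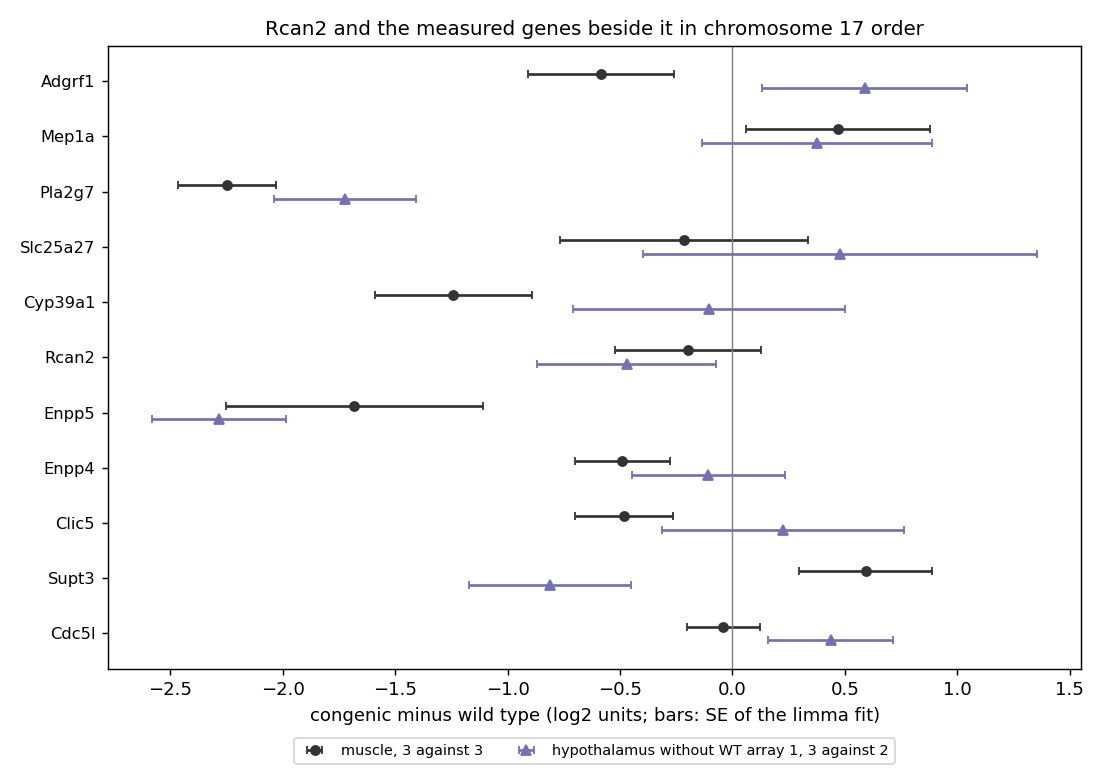
Congenic minus wild type difference (horizontal axis, log2 units) of Rcan2 and of the 5 measured genes on each side of it, from top to bottom in chromosome order, in muscle (circles) and in hypothalamus without wild type array 1 (triangles); bars are SEs of the limma fit. Rcan2 lies at -0.20 and -0.47, while Pla2g7 and Enpp5 lie at -1.73 and -2.28 in hypothalamus and at -2.25 and -1.68 in muscle.

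The genes whose values ran most like Ppp3cb and Rcan1 were found by Pearson correlation over 11 arrays, without wild type hypothalamus array 1 and after each tissue's mean was subtracted. For Ppp3cb these were Mtif2, a mitochondrial translation factor (r = 0.936), Acsl3, which encodes a fatty acid ligase (r = 0.934), and Olfr704, an olfactory receptor gene (r = 0.924). For Rcan1 these were Fxyd6, a regulator of the sodium pump (r = 0.962), Upk1b, a uroplakin (r = 0.953), and Wiz, a zinc finger protein (r = 0.952). Wiz lies on chromosome 17. Acsl3 read 14.46, 14.49 and 13.64 in congenic and 14.82, 14.81 and 14.78 in wild type muscle. It shared with Ppp3cb the low value on congenic array 3 and the lack of overlap between the strains. Fxyd6 read 15.07, 15.11 and 16.61 against 14.98, 15.24 and 15.97, and shared with Rcan1 the high value on that array. Both genes of each pair were read on the same 11 arrays, and no p was computed. Acsl3 and Fxyd6 were picked for this likeness, so what they share is not a separate result.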

How the data were processed

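Per the labels, total RNA of each sample was labelled as digoxigenin cRNA with a chemiluminescent kit and hybridised to a 1-colour array. The table the authors deposited was taken as log2 intensities of 33012 probes on 12 arrays. The base is not stated and was inferred from the range of the values. The 6 arrays of a tissue share 1 distribution, as after quantile normalization of that tissue alone. The array software, background correction and detection calls: not given in the sources used here. How far a low value lies above background is therefore unknown, and precision is limited by the number of arrays.

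Groups and replicate numbers came from the titles, since the descriptions give the congenic strain for wild type samples as well. The series text calls the 3 mice per strain biological replicates.

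Probes were named from the platform annotation: 14411 had 1 gene symbol, of which 14402 matched GRCm38.p6, 247 had several and 18354 had none. GRCm38.p6 was used for names, chromosomes, gene order and the RefSeq promoter windows. Congenic minus wild type was fitted per tissue with limma 3.58.1 in R 4.3.3 (trended eBayes) over all probes, and the interaction over 12 arrays, adjusted by Benjamini-Hochberg and called under 0.05. A gene of a list was read by its brightest probe. Named were all probes of the 9 genes, up to 4 genes per list and tissue with the largest differences, and the 3 genes most like Ppp3cb and Rcan1. Rcan2's neighbours were named by position. The fits were tested on simulated data. The alternatives were array weights, no trend, other scalings, a floor and a filter at the 20th percentile, 1 fit of all arrays, a replicate block and each array left out. The 9 genes, lists and tests were chosen with earlier results of these data known.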

Additional observations from a re-analysis of the deposited data

How the results depend on the processing

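In hypothalamus, 0 of the 8 probes had a limma adjusted p under 0.05 under every alternative run. The muscle contrast chose the genes and the interaction holds it, so nothing is read from calls of the 8 probes there. The 6 probes called in muscle over all probes became 9 under array weights and 2 without the mean-variance trend. They became 2 with values floored at the 20th percentile and 1 in a single fit of 12 arrays. With 1 array left out there were 2 to 8. The interaction, with 0 called, gave 1 under array weights. Deviations of same-numbered arrays correlated at 0.015 to 0.069 in muscle and -0.129 to 0.138 in hypothalamus, so the numbers were not taken as pairs. With the replicate number as a block limma called 6 probes in muscle and 0 in hypothalamus and in the interaction. No hypothalamus call of the 8 probes changed. The block cannot alter a difference between groups of equal size, so that of Ppp3cb stayed at -1.24 in muscle. In muscle Ppp3cb, Ppp3ca, Nfatc4 and Nfatc1 probe 555708 kept their sign under all 14 alternatives. Nfatc1 probe 821473 turned in 5, Rcan1 in 2 (array weights, without congenic array 3), Ppp3r1 in 1 (without congenic array 3) and Rcan2 in 1 (0.0036 without congenic array 1). The fit without a trend, the filter, the single fit and the block leave each difference as it was, so the sign there was fixed beforehand. Since the muscle contrast chose the genes, nothing is read from the kept signs in muscle. In hypothalamus signs turned for Ppp3ca (-0.30 under array weights, -0.44 without array 1 of both groups, -0.42 to 0.53 with 1 array left out), Ppp3cb (0.37 without array 1 of both groups, -0.65 to 0.22), Rcan1 (-0.15, -0.089, -0.11 to 0.66) and Rcan2 (-0.62, -0.17, -0.47 to 0.91), each in that order of alternatives. In the interaction they turned under array weights for Ppp3ca (0.0082), Rcan1 (0.12) and Rcan2 (0.34), and with 1 array left out for Nfatc4 (-0.19 to 1.22), Rcan1 (-0.61 to 0.24) and Rcan2 (-1.11 to 0.27). The cause was not tested. Low signal limits Nfatc4, Nfatc1 in hypothalamus, and dim genes of the lists such as Csf2, Il2, Ifng and Tnf.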
